A study of Mus musculus with 11 samples.

Results

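The genes described here encode the machinery of neurotransmitter release: the proteins of synaptic vesicles, the SNARE proteins that fuse vesicles with the plasma membrane, the calcium sensors that trigger fusion, and the scaffolds of the active zone where release takes place. They were chosen by name, as the mouse genes of a list of 32 symbols, and all 32 were found among the 30681 genes of the count table. All 32 passed the filter on low counts that left 16587 genes for testing. RNA from the hippocampus, a forebrain region made up of the dentate gyrus and CA fields, was sequenced in 6 libraries of a conditional knockout of Dclk3 (labelled cKO) and 5 libraries of wild type (WT). Each library came from 1 hippocampus of a mouse aged 6 months. Dclk3 encodes a doublecortin-like kinase, and in a conditional knockout a recombinase removes part of a gene in chosen cells. The sources used here do not name the recombinase line, the deleted part of the gene or the strain, and they list no agent or other allele for either group. Whether each library is a separate mouse is not stated, and the p-values therefore reflect the spread among these samples, which may be technical.

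Release begins when an action potential opens calcium channels beside vesicles that are already docked at the active zone. Docked vesicles are held ready by partly assembled SNARE complexes, which need Munc13 proteins to form and complexins to clamp them, and calcium binding to synaptotagmin sets off fusion. In the hippocampus many of these genes are transcribed by principal neurons and interneurons alike, while some paralogues are more restricted. Differences between paralogues contribute to differences in release probability.

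Libraries held 24001828 to 35674490 counts in all. Dclk3 had 15.45, 21.07, 21.11, 25.66, 18.19 and 19.17 CPM (counts scaled to a common library size) in cKO-labelled replicates 1 to 6, against 19.63, 21.03, 22.29, 28.09 and 21.05 CPM in WT replicates 1 to 5. These ranges overlapped, and the log2 fold change of -0.15 ± 0.12 (SE) missed the threshold (adjusted p = 0.727 by edgeR's quasi-likelihood test, Benjamini-Hochberg). The table holds 1 count for the whole gene, so it does not show whether part of it was deleted, and the group is called labelled cKO throughout. By Xist and Y-linked transcripts cKO-labelled libraries were 6 males, and the WT libraries were 2 males (replicates 2 and 5) and 3 females (replicates 1, 3 and 4). Marker lists for dentate granule cells (8 genes), CA1 pyramidal cells (7 genes) and CA3 and CA2 pyramidal cells (9 genes) held no gene that was at 0 in all libraries. Their summed levels were 518.7 to 607.6, 757.7 to 889.7 and 483.7 to 599.7 CPM in cKO-labelled libraries, against 512.8 to 664.4, 721.7 to 866.9 and 483.3 to 553.8 CPM in WT. In the same order 2 of 8, 6 of 7 and 3 of 9 genes had a log2 fold change above 0. At an unadjusted p under 0.05 (edgeR) 1 dentate granule gene was lower, 1 CA1 gene was higher, and 0 CA3 and CA2 genes were either. Over all genes tested 5.35% were lower and 3.84% higher at that p.

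No release gene passed the test between the genotypes. Sv2c, a vesicle membrane glycoprotein, and Bsn, which encodes the active zone scaffold Bassoon, came nearest, both higher in cKO-labelled libraries, at log2 fold changes of 0.46 and 0.14. Over the 32 genes the log2 fold changes ran from -0.07 to 0.46 with a median of 0.0040, beside a median of -7.86e-05 over all 16587 genes tested. The median size of the change, whatever its sign, was 0.03 for the 32 genes and 0.07 for all genes tested. Their median levels differed, at 256 CPM and 17.9 CPM, and the part of level in these sizes was not tested. Of the 32 genes 18 had a fold change above 0, or 56.2%, where the share over all genes tested was 50%.

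At an adjusted p under 0.05 edgeR's quasi-likelihood test called 0 of the 32 genes, and 0 of all 16587 genes (0%). DESeq2 called 0 of the 32 and 62 of the 14003 genes to which it gave an adjusted p (0.443%), and limma-voom called 0 of the 32 and 0 of all 16587 (0%). At an unadjusted p under 0.05 edgeR had 2 of the 32 higher, which is 6.25% beside 3.84% of all genes tested, and 0 lower, beside 5.35% of all genes. In either direction the share was 6.25%, against 9.19% of all genes, so the count of release genes lay near the background. That count was 4 without WT replicate 1 and 1 without WT replicate 3, 4 or 5. For 0 of the 32 genes did all cKO-labelled libraries lie on 1 side of all WT libraries, where 0.916% of all genes tested did. In bulk tissue fewer cells of a type and less RNA per cell cannot be told apart.

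For most of the genes the intervals of the fold change were narrow. For 27 of the 32 the 95% interval of the fold change lay within a 1.2-fold change in either direction (84.4%, beside 54.3% of all genes tested, whose median level was 17.9 CPM against 256 CPM for the 32). The 5 others were Sv2c, Sv2b, Syn3, Unc13c and Rims3, named after their values were seen. With a term for sex 15 of the 32 intervals lay within that bound, and with the 8 male libraries alone 14 did. With all 11 libraries the 32 genes had a median standard error of 0.06 (log2).

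**Figure D1:**
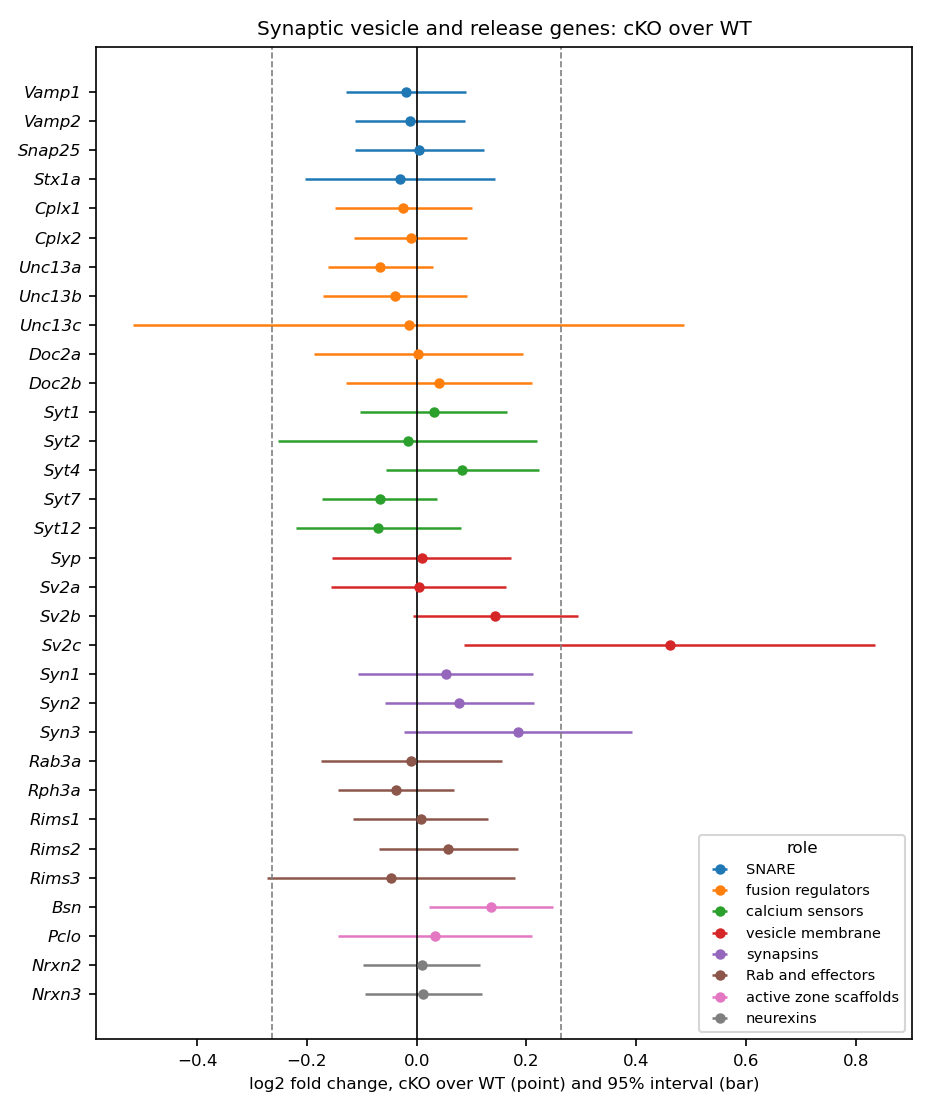
Log2 fold change of each of the 32 release genes, labelled cKO over WT (x axis, point), with its 95% interval (bar), coloured by role; the dashed lines mark a 1.2-fold change either way. Of the 32, the intervals of Sv2c and Bsn lie wholly on 1 side of 0, and that of Unc13c is the widest around a value near 0.

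The levels of the genes spanned a wide range, which is given here per length, as CPM per kilobase of annotated exon. Cplx2, a complexin that binds the assembled SNARE complex, stood highest, at 447 ± 16.5 in cKO-labelled libraries and 450.2 ± 24.1 in WT (SD, n = 6 and 5). Syn3, the least abundant synapsin, stood lowest, at 0.737 ± 0.097 in cKO-labelled libraries and 0.649 ± 0.060 in WT. The mean over all libraries of Cplx2 per kilobase was 643 times that of Syn3. Below Cplx2 came Vamp2, Cplx1, Snap25 and Syp, whose means over all 11 libraries were 259.5 to 284 CPM per kilobase and whose ranges overlapped from each to the next. Of the 31 neighbouring pairs in the order of levels, 24 overlapped in their ranges over the libraries. The steps without overlap were those below Cplx2, Rab3a, Syn2, Rph3a, Unc13a, Nrxn2 and Syt2. Among paralogues, the form of highest mean per kilobase was Vamp2 over Vamp1, Cplx2 over Cplx1, Syt1 over the other synaptotagmins listed, Sv2a over Sv2b and Sv2c, Rims1 over Rims2 and Rims3, Unc13a over Unc13b and Unc13c, and Doc2b over Doc2a. The ranges of Sv2a and Sv2b per kilobase overlapped, at 60.46 to 81.14 and 47.67 to 67.59. Before division by length Sv2b stood above Sv2a in every library, with means of 448 and 330 CPM. Exon lengths count every annotated isoform, so the order would move with the isoforms that are in use.

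**Figure D2:**
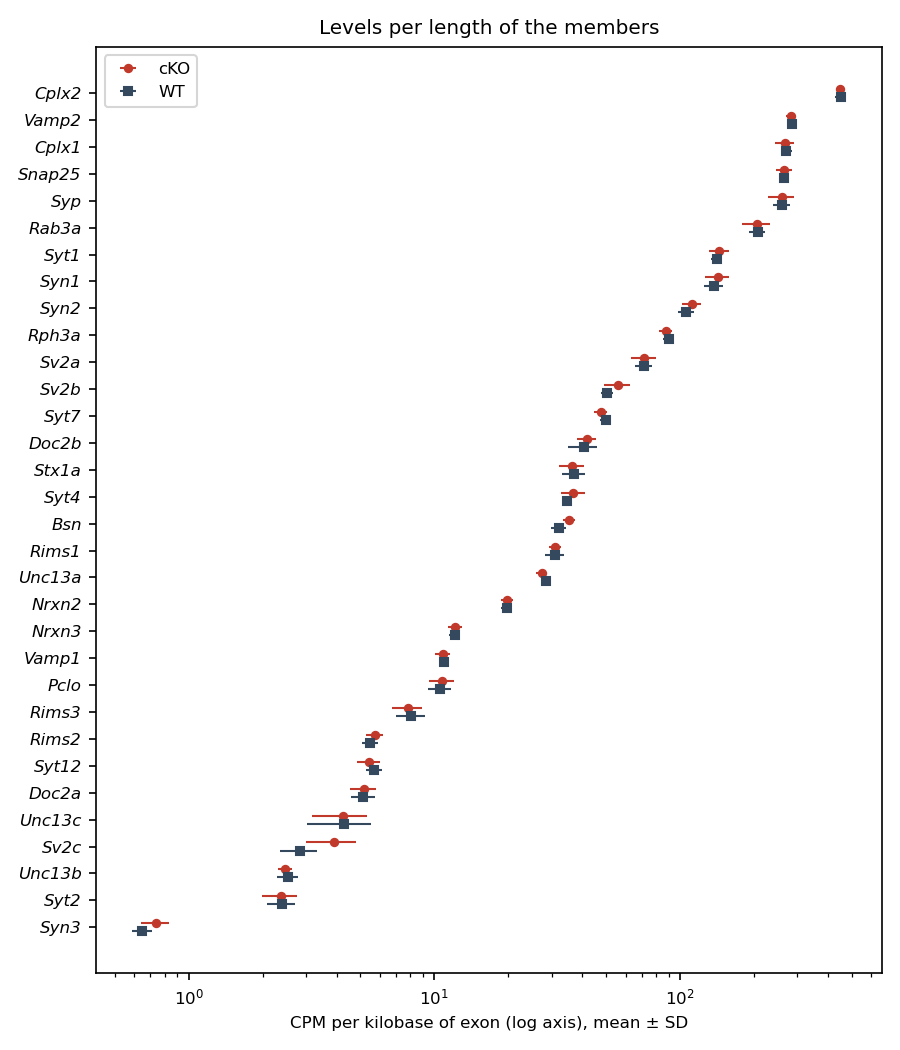
Level per length of the 32 release genes (x axis, CPM per kilobase of exon on a log axis; mean ± SD of 6 cKO-labelled libraries, circles, above 5 WT libraries, squares), ordered by the mean over all libraries. The genotype means stand close beside the range from Cplx2 at the top to Syn3 at the bottom, and Sv2c shows the widest gap between the genotypes.

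The SNARE genes overlapped between the genotypes and had fold changes near 0. Snap25, which encodes a plasma membrane SNARE, had 1638 to 2029 CPM with a median of 1758 CPM in cKO-labelled libraries, against 1763, 1860, 1870, 1742 and 1743 CPM in WT replicates 1 to 5. The WT values lay within the range of cKO-labelled libraries, of which replicates 3 and 4 were highest. The log2 difference of 0.0045 ± 0.06 (SE) had 95% bounds of -0.11 and 0.12. Vamp2, the main vesicle SNARE (synaptobrevin), had 1079 ± 52.1 CPM in cKO-labelled libraries and 1088 ± 43.1 CPM in WT, a log2 fold change of -0.01 ± 0.05 (SE). Its paralogue Vamp1 was at -0.02 ± 0.05 and Stx1a, the plasma membrane SNARE syntaxin, at -0.03 ± 0.08 (log2 fold change ± SE). None of these 4 passed edgeR's test (adjusted p from 0.938 to 0.991).

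Genes that prime and clamp fusion also had values close to each other. Cplx2 had 2095 to 2324 CPM with a median of 2185 CPM in cKO-labelled libraries, against 2206, 2251, 2194, 2386 and 2055 CPM in WT. The highest and the lowest library were both WT, replicates 4 and 5, and the log2 fold change was -0.01 ± 0.05 (SE). Cplx1, the other abundant complexin, was at -0.02 ± 0.06. Unc13a, the main Munc13 priming factor of excitatory synapses, had 360.9, 343.2, 318.1, 359.2, 336 and 351.5 CPM in cKO-labelled replicates 1 to 6, against 343.3, 351.3, 362.2, 366.6 and 381.4 CPM in WT replicates 1 to 5. The groups overlapped, with 3 WT libraries above every cKO-labelled library, and the log2 fold change was -0.07 ± 0.05 (SE, 95% interval -0.16 to 0.03; edgeR, adjusted p = 0.69). Unc13b, another Munc13, was at -0.04 ± 0.06, and Doc2a and Doc2b, calcium-binding proteins of spontaneous and asynchronous release, were at 0.0032 ± 0.09 and 0.04 ± 0.08 (log2 fold change ± SE). Of the exon bases of Doc2a 39.4% are shared with Ino80e on the other strand. The sources used here do not say whether counting used the strand, so its level is uncertain.

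Unc13c, a Munc13 best known from cerebellar granule cells, was the most variable of the priming genes, and its values are given for that reason, chosen after they were seen. It had 50, 33.75, 41.88, 31.27, 42.75 and 23.92 CPM in cKO-labelled replicates 1 to 6, against 36.37, 36.07, 28.8, 30.59 and 56.44 CPM in WT replicates 1 to 5. The highest library was WT replicate 5 and the lowest was cKO-labelled replicate 6, so that each group held high and low libraries. The means were 37.3 ± 9.38 CPM in cKO-labelled libraries and 37.7 ± 11.01 CPM in WT (SD, n = 6 and 5). The log2 fold change of -0.01 ± 0.22 (SE) had a 95% interval from -0.52 to 0.49, which reaches past 1.2-fold in both directions. In the 8 male libraries, where WT replicate 5 is 1 of the 2 WT libraries, the fold change was -0.31. Without WT replicate 5, and with all other libraries of both sexes, it was 0.175.

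Calcium sensors of the synaptotagmin family did not pass the test either (edgeR, adjusted p from 0.71 to 0.978). Syt1, the sensor of fast synchronous release in forebrain neurons, had 1046 to 1335 CPM with a median of 1219 CPM in cKO-labelled libraries, against 1180, 1119, 1114, 1235 and 1239 CPM in WT. All WT values fell within the range of cKO-labelled libraries, and the log2 fold change was 0.03 ± 0.06 (SE). Syt7, a slow, high-affinity sensor linked to facilitation, had 368.8, 366.1, 317.9, 375, 348.4 and 357.2 CPM in cKO-labelled replicates 1 to 6, against 356.3, 382.9, 364.7, 360.6 and 398.2 CPM in WT. The lowest library was cKO-labelled replicate 3 and the highest WT replicate 5, with a log2 fold change of -0.07 ± 0.05 (SE). With a sex term Syt7 was 1 of the 2 release genes with an unadjusted p under 0.05, at a log2 fold change of -0.14 (edgeR, adjusted p = 0.713). Syt4, a synaptotagmin of peptide-containing vesicles whose transcription is linked to activity, had 154, 124.3, 163.2, 137.8, 153.1 and 127 CPM in cKO-labelled replicates 1 to 6, against 133.8, 143.5, 135.2, 133.8 and 129.5 CPM in WT. The cKO-labelled libraries were spread to both sides of the WT libraries, and the log2 fold change was 0.08 ± 0.07 (SE). Syt2, the fast sensor of many hindbrain and parvalbumin-type neurons, was at -0.02 ± 0.11, and Syt12, a synaptotagmin without calcium binding, at -0.07 ± 0.07 (log2 fold change ± SE).

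The widest difference of the 32 genes was that of Sv2c, a gene of the vesicle membrane. Sv2c (ENSMUSG00000051111, chromosome 13, 95954594 to 96132577, minus strand, mm10) encodes the SV2 glycoprotein of most restricted distribution, known from the basal ganglia. It had 25.71, 39.06, 31.49, 42.91, 37.47 and 50.49 CPM in cKO-labelled replicates 1 to 6, against 33.72, 23.78, 28.75, 29.22 and 21.89 CPM in WT replicates 1 to 5. cKO-labelled replicates 2, 4, 5 and 6 lay above every WT library, while replicates 1 and 3 lay within the WT range. The means were 37.9 ± 8.66 CPM in cKO-labelled libraries and 27.5 ± 4.70 CPM in WT (SD, n = 6 and 5). The log2 fold change of 0.46 ± 0.17 (SE, 95% interval 0.09 to 0.84) did not pass the test over all genes (edgeR, unadjusted p = 0.0204, adjusted p = 0.476). With a sex term it was 0.73, and in the 8 male libraries 0.73 (edgeR, adjusted p = 0.701 and 0.854). Without WT replicate 5 the unadjusted p of Sv2c was 0.0526 (edgeR, adjusted p = 0.729). The 2 male WT libraries had the lowest values of all 11 libraries.

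Summed levels of markers of other cells also differed between the genotypes for some lists. The 7 astrocyte markers summed to 8359 to 10400 CPM in cKO-labelled libraries and 6743 to 7953 CPM in WT, and 7 of 7 had a fold change above 0, of which 4 had an unadjusted p under 0.05 (edgeR). At that p 3.84% of all genes tested were higher and 5.35% lower. The 7 microglial markers summed to 572.2 to 840.3 CPM in cKO-labelled libraries and 570.1 to 627.9 CPM in WT, again with 7 of 7 above 0 and 4 at an unadjusted p under 0.05. The 8 pan-neuronal markers summed to 4430 to 4748 CPM in cKO-labelled libraries and 4217 to 4407 CPM in WT, with 7 of 8 above 0 and 1 higher at an unadjusted p under 0.05. The 9 striatal markers, listed because Sv2c is known from that region, summed to 197.5 to 237.4 CPM in cKO-labelled libraries and 183.3 to 215.1 CPM in WT, with 4 of 9 above 0. At an unadjusted p under 0.05 (edgeR) 2 striatal markers were higher, Drd1 at a log2 fold change of 1.02 and Penk at 0.53, and 1 was lower, Rgs9 at -0.14, named after their values were seen. The 10 thalamic markers summed to 133.7 to 176.3 CPM in cKO-labelled libraries and 165.1 to 178.4 CPM in WT, with 4 of 10 above 0 and 3 lower at an unadjusted p under 0.05. The 9 interneuron markers summed to 799.2 to 1041 CPM in cKO-labelled libraries and 861.8 to 944.2 CPM in WT, and the 7 oligodendrocyte markers to 4508 to 6214 CPM in cKO-labelled libraries and 4797 to 5779 CPM in WT. The summed ranges did not overlap for the astrocyte and the pan-neuronal markers. Such sums weigh abundant genes most, among them Slc1a2 of the astrocyte list at a mean of 4874 CPM and Map2 of the pan-neuronal list at 2012 CPM. Gfap of the astrocyte list varied widely, at 1608 ± 1062 CPM in cKO-labelled libraries and 799 ± 271 CPM in WT (SD), and its groups overlapped. The median deviations of the pan-neuronal markers from their own means did overlap. They were -0.09 to 0.24 in cKO-labelled libraries and -0.08 to 0.01 in WT (log2). None of these lists held a gene at 0 in all libraries, and the part of these cells in the values of Sv2c or Bsn was not tested. The median deviations of the astrocyte markers (log2) were -0.015, 0.16, 0.02, 0.03, 0.05 and 0.29 in cKO-labelled replicates 1 to 6. In WT replicates 1 to 5 they were -0.017, -0.05, -0.13, -0.25 and -0.14. cKO-labelled replicate 6 was thus the highest library for these markers and for Sv2c. cKO-labelled replicate 4, next highest for Sv2c, was at 0.03, and the lowest libraries differed, WT replicate 4 for the markers and WT replicate 5 for Sv2c.

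The other vesicle membrane genes varied less. Sv2b, an SV2 paralogue common in the forebrain, had 466.4, 413, 566.5, 493.1, 447.3 and 423.9 CPM in cKO-labelled replicates 1 to 6, against 458.6, 402.7, 399.6, 428.4 and 431.4 CPM in WT. cKO-labelled replicates 1, 3 and 4 lay above every WT library. Its log2 fold change was 0.14 ± 0.07 (SE, 95% interval -0.01 to 0.29; edgeR, adjusted p = 0.555). Sv2a, the SV2 paralogue found at most synapses and the target of the drug levetiracetam, was at 0.0034 ± 0.08 (log2 fold change ± SE). Syp, the vesicle protein synaptophysin, had 1161 to 1560 CPM with a median of 1311 CPM in cKO-labelled libraries, against 1389, 1211, 1316, 1501 and 1320 CPM in WT. Its range in cKO-labelled libraries took in every WT value, with a log2 fold change of 0.01 ± 0.08 (SE). Syp is X-linked, and averaged 1266 CPM in the 2 male and 1402 CPM in the 3 female WT libraries. Those 2 sets overlapped, at 1211 to 1320 and 1316 to 1501 CPM. The cKO-labelled libraries, all male, averaged 1356 CPM, and a difference by sex was not tested. The fold changes of Syp and Sv2a were -0.02 and -0.03 when libraries were scaled by their totals alone.

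The synapsins, phosphoproteins that tether vesicles in the reserve pool, passed the test in none of 3 genes (edgeR, adjusted p from 0.582 to 0.876). Their log2 fold changes were above 0 in 3 of 3, where the share over all genes tested was 50%. Without cKO-labelled replicate 4 that of Syn1 was -0.0012. Syn2 had 734.3, 734.6, 852.1, 894.6, 773.4 and 727.2 CPM in cKO-labelled replicates 1 to 6, against 806.1, 687.9, 712.6, 800.5 and 717 CPM in WT. Only cKO-labelled replicates 3 and 4 lay above every WT library, and the log2 fold change was 0.08 ± 0.06 (SE). Syn3, the synapsin linked to neuronal development, had 7.129, 9.253, 9.58, 10.76, 8.717 and 8.855 CPM in cKO-labelled replicates 1 to 6, against 9.162, 8.234, 7.538, 7.386 and 7.557 CPM in WT. cKO-labelled replicate 1 was the lowest of all libraries, while cKO-labelled replicates 2, 3 and 4 lay above every WT library, with a log2 fold change of 0.18 ± 0.10 (SE, 95% interval -0.02 to 0.39). Of the exon bases of Syn3 14.1% are shared with Timp3 on the other strand, and for Syp, Syt4 and Syt12 such shared bases make up 16.8%, 14.5% and 17.2%. Syn1, the X-linked synapsin, was at 0.05 ± 0.08 (log2 fold change ± SE), and averaged 441.1 CPM in the 2 male and 458.9 CPM in the 3 female WT libraries. In the cKO-labelled libraries, all male, Syn1 averaged 468.7 CPM.

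Rab3a, a vesicle GTPase, and its effectors did not pass the test (edgeR, adjusted p from 0.818 to 0.983). Rab3a had 391.5 to 534.9 CPM with a median of 438.5 CPM in cKO-labelled libraries, against 466.7, 431.5, 436.7, 515.9 and 448.6 CPM in WT. All WT values lay within the range of cKO-labelled libraries. Its log2 fold change was -0.01 ± 0.08 (SE). Rph3a, which encodes the effector rabphilin, was at -0.04 ± 0.05. Rims1 and Rims2, active zone proteins that recruit calcium channels and prime vesicles, were at 0.01 ± 0.06 and 0.06 ± 0.06, and Rims3, a short family member, at -0.05 ± 0.10 (log2 fold change ± SE). Rims1 had 199.8 to 223.3 CPM in the 3 female WT libraries and 245.3 and 248.2 CPM in the 2 male WT libraries. Male and female WT libraries also lay apart for Vamp1, Syt7, Syt12, Sv2c, Rims2, Rims3, Pclo and Nrxn3, and a difference by sex was not tested. The fold change of Rims1 was -0.11 in the 8 male libraries and -0.11 with a sex term, against 0.01 with all 11 libraries. With a sex term 12 of the 32 genes changed sign, among them Rims1, Pclo (-0.10) and Nrxn3 (-0.06).

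Bsn (ENSMUSG00000032589, chromosome 9, 108096022 to 108190384, minus strand, mm10) encodes Bassoon, a giant protein that organises the active zone. It had 584.7, 595.3, 566.3, 564.6, 505.8 and 557.2 CPM in cKO-labelled replicates 1 to 6, against 550, 514, 472, 481.5 and 541.5 CPM in WT replicates 1 to 5. Of cKO-labelled libraries 5 of 6 lay above every WT library, and replicate 5 lay within the WT range. The means were 562 ± 31.1 CPM in cKO-labelled libraries and 512 ± 34.8 CPM in WT (SD, n = 6 and 5), with a log2 fold change of 0.14 ± 0.05 (SE, 95% interval 0.02 to 0.25). This did not pass the test over all genes (edgeR, unadjusted p = 0.0215, adjusted p = 0.476). In the 8 male libraries the fold change was 0.09 (edgeR, unadjusted p = 0.208, adjusted p = 0.878). Without WT replicate 3 or 4 the unadjusted p was 0.081 and 0.0687 (edgeR, adjusted p = 0.744 and 0.667). Pclo, which encodes the related scaffold Piccolo, was at 0.03 ± 0.08 (log2 fold change ± SE), with 294.2 CPM in cKO-labelled replicate 1 as its highest library and 199 CPM in WT replicate 4 as its lowest.

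The neurexins, presynaptic adhesion proteins that bind postsynaptic partners, overlapped between the genotypes. Nrxn2 had 249.3 to 296.2 CPM with a median of 273.8 CPM in cKO-labelled libraries, against 279.6, 263.1, 251.9, 287.8 and 276.2 CPM in WT, which all lay inside that range. Its log2 fold change was 0.01 ± 0.05 (SE), and that of Nrxn3 was 0.01 ± 0.05 (SE). With 1 count per gene, splicing differences between neurexin isoforms could not be seen.

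**Figure D3:**
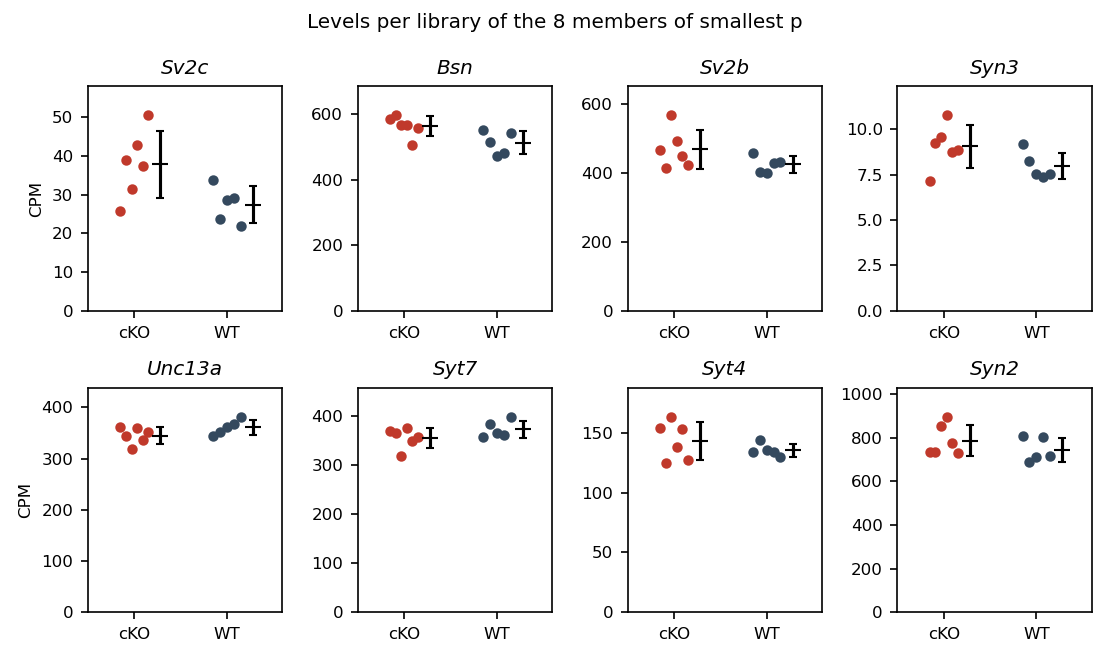
CPM per library of the 8 release genes of smallest unadjusted p (y axes start at 0; cKO-labelled libraries left, WT right; the bar is the mean ± SD). The groups overlap in each panel; Sv2c shows the widest spread between libraries for its level, and Bsn has 5 of 6 cKO-labelled libraries above every WT library.

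Promoter sequences are shown for the 2 genes nearest to the threshold, and for Syn1 because it holds a motif that few promoters have. RefSeq windows of build GRCm38.p6, from 250 bases before to 50 bases after the annotated start, were found for 22 of the 32 genes, in 33 windows. Both strands were searched for the GC box, spelled GGGCGG, for the TATA box, spelled TATAAA, for the cAMP response element, spelled TGACGTCA, and for the E-box, spelled CACGTG, and capitals mark the matches. No searched motif overlapped another in the windows shown.
Sv2c promoter (chr13:96132528-96132827, minus strand): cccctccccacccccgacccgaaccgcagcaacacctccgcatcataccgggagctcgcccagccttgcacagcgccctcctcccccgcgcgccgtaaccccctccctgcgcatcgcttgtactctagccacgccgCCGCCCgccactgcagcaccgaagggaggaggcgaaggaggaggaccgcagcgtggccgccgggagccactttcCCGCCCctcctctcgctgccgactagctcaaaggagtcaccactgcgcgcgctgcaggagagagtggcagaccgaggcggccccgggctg
Bsn promoter (chr9:108190334-108190633, minus strand): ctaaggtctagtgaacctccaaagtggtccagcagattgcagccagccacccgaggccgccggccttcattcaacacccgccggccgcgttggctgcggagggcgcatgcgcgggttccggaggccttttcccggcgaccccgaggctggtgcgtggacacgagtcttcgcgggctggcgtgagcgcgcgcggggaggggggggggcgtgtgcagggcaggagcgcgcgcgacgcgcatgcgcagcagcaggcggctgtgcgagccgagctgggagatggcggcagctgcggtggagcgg
Syn1 promoter (chrX:20920869-20921168, minus strand): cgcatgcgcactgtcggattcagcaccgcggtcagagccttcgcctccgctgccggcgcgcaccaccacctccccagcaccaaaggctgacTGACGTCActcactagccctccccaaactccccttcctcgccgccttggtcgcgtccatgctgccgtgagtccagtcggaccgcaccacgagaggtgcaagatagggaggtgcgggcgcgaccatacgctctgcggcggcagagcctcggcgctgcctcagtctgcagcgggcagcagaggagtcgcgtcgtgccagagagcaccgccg
The Sv2c window held 2 GC boxes, a motif found in 20 of the 33 windows of release genes and in 35.7% of all 32851 promoter windows. The Bsn window held 0 matches to these motifs, and its base composition was 72.3% G and C, close to 71.7% for Sv2c and 68.3% for Syn1. The Syn1 window held 1 cAMP response element, the only match among the 33 windows, where 1.79% of all promoter windows have 1 or more. TATA boxes were in 2 of the 33 windows and in 13.6% of all, and E-boxes in 2 of the 33 and in 7.15% of all. These matches are letters in a window and were not tested against the expression values.

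Many release genes deviated in the same direction within a library. The median over the 32 genes of the deviation from each gene's mean (log2 CPM) was 0.03, -0.09, 0.11, 0.13, -0.01 and -0.08 in cKO-labelled replicates 1 to 6, against 0.02, -0.05, -0.07, 0.02 and 0.04 in WT replicates 1 to 5. cKO-labelled replicates 3 and 4 were thus high, with 23 and 24 of the 32 genes above their own mean, while cKO-labelled replicates 2 and 6 and WT replicate 3 were low, with 9, 5 and 6 above. The highest library was cKO-labelled replicate 4 for 10 genes and replicate 3 for 8, and the lowest was cKO-labelled replicate 2 for 11. The pan-neuronal markers had median deviations of 0.18 and 0.24 in cKO-labelled replicates 3 and 4, the highest of the 11 libraries. cKO-labelled replicates 2, 3 and 4, of which the first was low and the others high, were the 3 deepest libraries, at 33836016 to 35674490 counts.

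Sv2c and Unc13c were opposite in the 2 libraries at their extremes. In cKO-labelled replicate 6 Sv2c stood at 0.65 and Unc13c at -0.60 from their means, and in WT replicate 5 Sv2c stood at -0.55 and Unc13c at 0.63 (log2 CPM). Rims3, Doc2a and Syt2 were also high in WT replicate 5, at 0.32, 0.25 and 0.30, and low in cKO-labelled replicate 6, at -0.41, -0.30 and -0.23. The standard deviation of log2 CPM over all 11 libraries was 0.37 for Sv2c and 0.36 for Unc13c, the highest of the 32 genes, and 0.06 for Cplx2 and Vamp2, the lowest. Its median was 0.12 over the 32 genes and 0.13 over all genes tested.

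**Figure D4:**
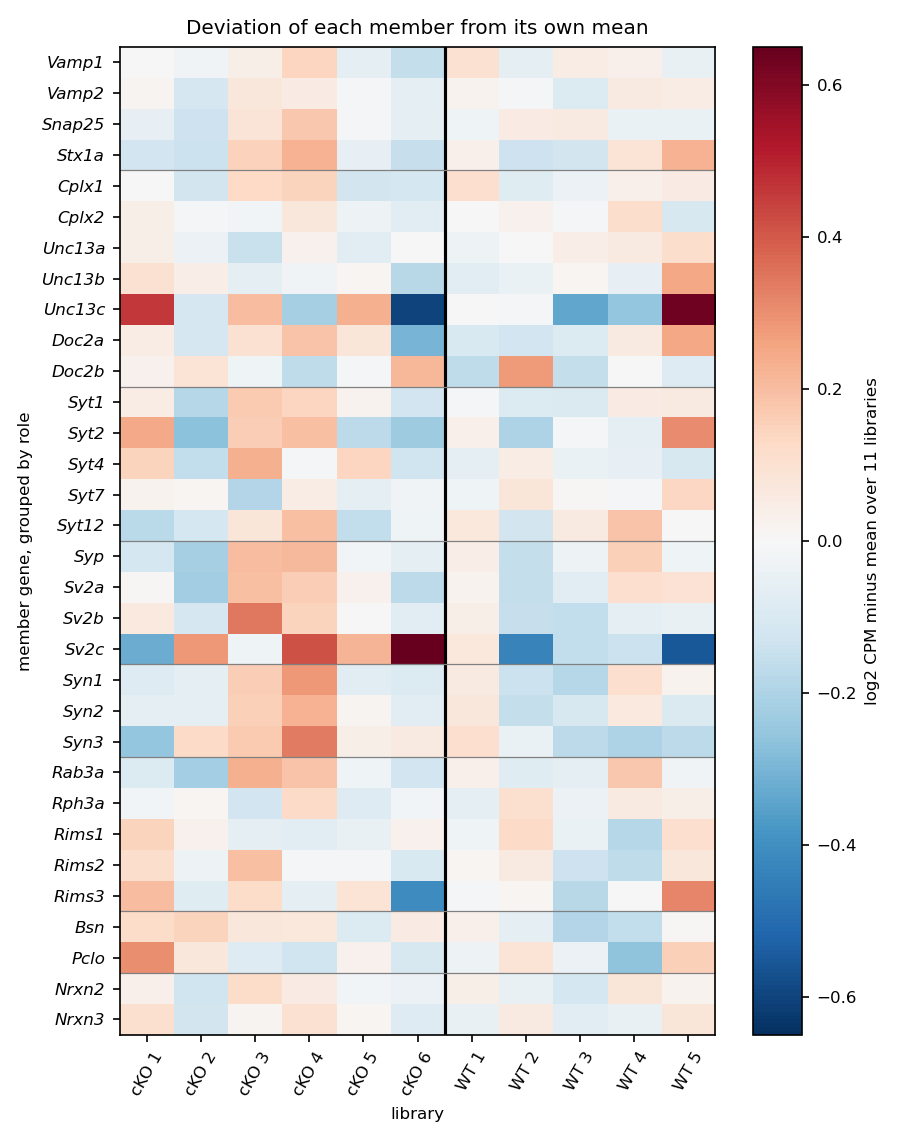
Deviation of log2 CPM of each release gene (rows, grouped by role) from its own mean over 11 libraries (columns, labelled cKO left of WT; red is higher, blue lower). cKO-labelled replicates 3 and 4 are red in most rows, cKO-labelled replicates 2 and 6 and WT replicate 3 are blue in most, and the rows of Sv2c and Unc13c are the strongest and opposite in cKO-labelled replicate 6 and WT replicate 5.

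The genes most like Sv2c over the 11 libraries were Rasl10a, Efna1, Acvr1c, Gpnmb and Srxn1, out of 11641 genes with a mean of at least 5 CPM. Their Pearson r with Sv2c was 0.93 to 0.959 and their Spearman rho 0.927 to 0.945. Without cKO-labelled replicate 6 and WT replicate 5, the libraries farthest from the median of Sv2c, r was 0.884 to 0.934. These are the highest values of a search over many genes and describe likeness only. Their own log2 fold changes were 0.27 ± 0.14 for Rasl10a, a Ras-like GTPase, 0.26 ± 0.13 for Efna1, an ephrin ligand, 0.62 ± 0.21 for Acvr1c, an activin receptor, 0.73 ± 0.37 for Gpnmb, a transmembrane glycoprotein, and 0.15 ± 0.06 for Srxn1, which encodes sulfiredoxin (SE).

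Ratios between paralogues within a library do not depend on scaling, and 15 were set side by side. In all 15 the groups overlapped. The log2 ratio of Sv2b to Sv2a was 0.51 ± 0.07 in cKO-labelled libraries and 0.37 ± 0.09 in WT (SD, n = 6 and 5), a difference of 0.14. That of Sv2c to Sv2a was -3.15 ± 0.44 in cKO-labelled libraries and -3.60 ± 0.26 in WT, a difference of 0.45. These were the 2 ratios whose difference was larger than the SD of both groups. In the other 13 the difference ran from -0.09 for Syt7 to Syt1 up to 0.10 for Syn3 to Syn2. The log2 ratio of Cplx1 to Cplx2 was -1.92 ± 0.10 in cKO-labelled libraries and -1.91 ± 0.12 in WT, and that of Vamp1 to Vamp2 -3.29 ± 0.07 in cKO-labelled libraries and -3.28 ± 0.10 in WT. In the 8 male libraries the differences were 0.13 for Sv2b to Sv2a and 0.67 for Sv2c to Sv2a. In the other 13 they then ran from -0.23 for Unc13c to Unc13a up to 0.09 for Syt1 to Syt2, with -0.16 for Syt7 to Syt1.

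**Figure D5:**
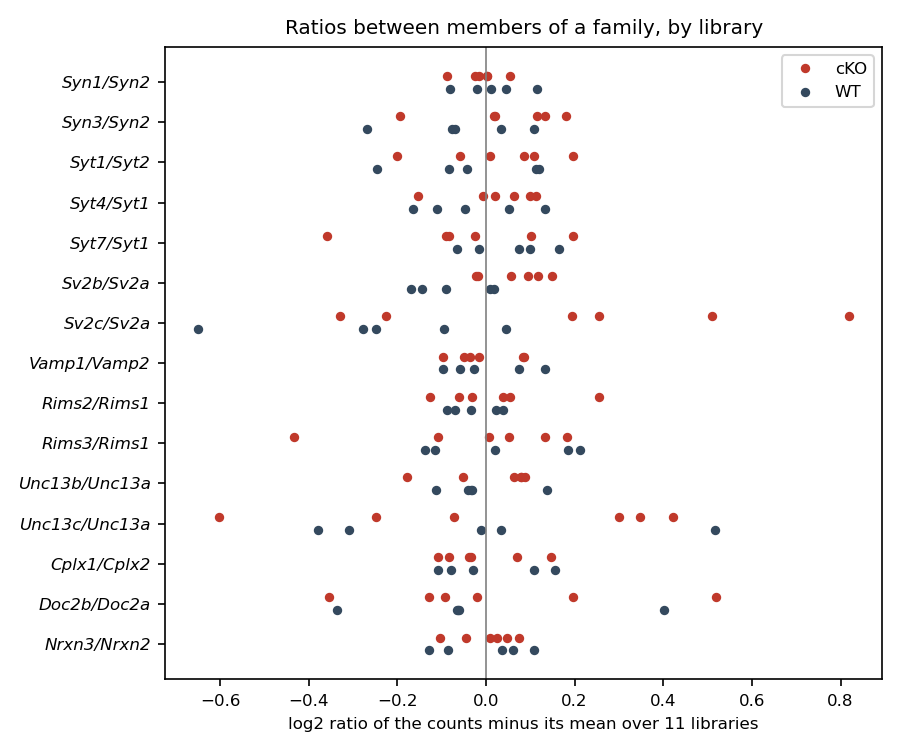
Log2 ratio of the counts of paralogues within each library, minus its mean over the 11 libraries (x axis), for 15 ratios (cKO-labelled libraries above WT in each row). The groups overlap in all 15 rows; Sv2c to Sv2a, Unc13c to Unc13a and Doc2b to Doc2a spread most, and Sv2b to Sv2a shows the clearest shift for its spread.

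Of 53 other genes of the presynaptic terminal, all were tested and edgeR, DESeq2 and limma-voom called 0 at an adjusted p under 0.05. At an unadjusted p under 0.05 edgeR had 2 higher and 0 lower, which is 3.77% beside 9.19% of all genes in either direction, and this count was 5 without cKO-labelled replicate 1 and 1 without cKO-labelled replicate 5 or WT replicate 1. The 2 were Cadps2, a priming factor of dense-core vesicles, and Stxbp5l, a tomosyn that binds syntaxin. Cadps2 had 122.2, 109.9, 135.2, 103.7, 126.1 and 108 CPM in cKO-labelled replicates 1 to 6, against 99.32, 115.1, 103.4, 101.7 and 96.1 CPM in WT, a log2 fold change of 0.19 ± 0.07 (SE). Stxbp5l had 57.46, 58.1, 56.07, 57.81, 60.22 and 54.56 CPM in cKO-labelled replicates 1 to 6, against 52.98, 54.3, 54.15, 48.28 and 56.08 CPM in WT, a log2 fold change of 0.11 ± 0.05 (SE). For Cadps2 3 and for Stxbp5l 4 of the 6 cKO-labelled libraries lay above every WT library, and neither gene passed the test over all genes (edgeR, adjusted p = 0.436 and 0.496). The next 4 by p were Napb, a SNAP protein that recycles SNARE complexes (0.11 ± 0.05), Eps15, an endocytic adaptor (0.09 ± 0.05), Stxbp5, the other tomosyn (0.07 ± 0.04), and Svop, an SV2-related vesicle protein (0.11 ± 0.06; log2 fold change ± SE).

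The fold changes of these 53 genes were above 0 in 43, or 81.1%, where the share was 56.2% in the 32 release genes and 50% in all genes tested. The median was 0.04, against 0.0040 in the 32 release genes. With each library left out in turn the median of the 53 ran from 0.02 to 0.06, with 34 to 49 of them above 0. That of the 32 ran from -0.02 to 0.03, with 12 to 23 above 0. Without cKO-labelled replicate 3 or 4 the median of the 53 was 0.03 and 0.02, with 35 and 34 above 0. That of the 32 was then -0.02 and -0.02, with 12 and 13 above 0. Without cKO-labelled replicate 2 or WT replicate 4, 49 of the 53 were above 0. The highest median deviations of the 53 genes were in cKO-labelled replicates 3 and 4, at 0.11 and 0.11 (log2 CPM). With libraries scaled by their totals alone, 32 of the 53 and 11 of the 32 were above 0, and the median over all genes tested fell by 0.03. By subgroup the values were above 0 in 8 of 11 genes of membrane fusion, 8 of 9 of the active zone, 8 of 11 of calcium sensors and Rab proteins, 10 of 12 of the vesicle membrane and its chaperones, and 9 of 10 of endocytosis. Genes of such a list share their libraries and are not replicates, so these counts carry no test.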

How the data were processed

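Per the labels' protocols, poly(A) RNA of 11 single hippocampi went into stranded (dUTP) libraries. Listed in the submitters' processing notes are the tool bcl2fastq 2.17.1.14 and the build mm10. Aligner, counter, annotation and strand setting: not given in the sources used here. Deposited values are the authors' raw counts for each Ensembl gene, whole numbers with no scaling, in 1 column per library.

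Genes were named from GENCODE M21 (mm10), which matched 30566 of 30681 IDs. Every pair of libraries within a group differed by more than counting error (smallest chi-square per degree of freedom 5.70). Genes were filtered with filterByExpr and scaled by TMM. CPM was computed here from the deposited counts. Genotypes were compared with edgeR (robust quasi-likelihood, 2-sided), and p-values were adjusted by Benjamini-Hochberg over all 16587 genes, with a threshold of 0.05. Standard errors were derived from each fold change and its test statistic. Deviations use log2 CPM with a prior count of 2.

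The members and lists were chosen with earlier results of these data known. The genes named are Dclk3, all 32 release genes, with per-library values for the 8 of smallest p and the most abundant of each role (Unc13c was added after its values were seen), the 6 other presynaptic genes of smallest p, and the 5 genes most like the member of smallest p. Alternatives were other scalings and filters, the replicate number as a block, a sex term, male libraries alone, DESeq2, limma-voom with quality weights, and each library left out. The tests were tried on simulated counts with known fold changes, and how often small changes were recovered is not given here. Versions were edgeR 4.0.16, DESeq2 1.42.0, limma 3.58.1 and R 4.3.3.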

Additional observations from a re-analysis of the deposited data

Results flagged for a closer look

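In WT replicate 5 Unc13b had 67.82 CPM, where the nearest of the other 4 WT libraries had 57.34 CPM, a gap of 0.772 of the group's range. In the same library Unc13c had 56.44 CPM, where the nearest of the other 4 WT libraries had 36.37 CPM, a gap of 0.726 of the range. Both are values of a library that stands apart from the rest of its group. They are 2 of 108 groups examined, and chance alone flags about 1 in 20 groups. Without WT replicate 5 the log2 fold changes, cKO-labelled over WT, were 0.02 for Unc13b and 0.17 for Unc13c, against -0.04 and -0.01 with all libraries.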

How the results depend on the processing

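Under all 21 alternatives run (10 other settings and 11 libraries left out in turn) 0 of the 32 release genes and 0 of the 53 other presynaptic genes passed the threshold, and Sv2c and Bsn stayed higher. Sv2c ranged from 0.36 to 0.73 and Bsn from 0.09 to 0.17 (log2 fold change), and 9 of the 32 genes kept their sign throughout. The smallest adjusted p of a release gene was 0.161, for Sv2c without cKO-labelled replicate 1 (edgeR). Over all genes 0 were called with the main settings, 1 with library totals, 3 with no filter and 62 by DESeq2, and 0 to 14 with a library left out, the most without WT replicate 5. Release genes at an unadjusted p under 0.05 numbered 2, and 3 with no filter, 1 with library totals or the 8 male libraries, and 1 to 4 with a library left out. Other presynaptic genes at that p numbered 2, and 3 with no filter, the replicate block or the sex term, 1 with library totals, 5 by DESeq2 and 1 to 5 with a library left out. Intervals within 1.2-fold numbered 27, and 15 with a sex term and 14 in the 8 male libraries, and the median standard error of a release gene was 0.09 and 0.10 there, against 0.06. The cause of these shifts was not tested. The median of the 32 fold changes stayed within -0.03 to 0.03. With the replicate block, on replicates 1 to 5 of each group, 0 release genes were called, and Sv2b and Bsn were the 2 at an unadjusted p under 0.05. Sv2c was then at 0.36, with cKO-labelled replicate 6 outside the fit. The numbers did not pair the samples, as the 5 correlations of same-numbered deviations ran from -0.32 to 0.21 and 1 of 5 cKO-labelled libraries correlated best with its own number. Sex and genotype cannot be fully told apart with 0 female cKO-labelled libraries.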
